A study of Mus musculus with 9 samples.

Results

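The tumour necrosis factor (TNF) ligands and receptors were followed in fat taken from around the prostate (periprostatic adipose tissue) in mice on 2 diets. Members were taken by symbol, as genes whose names start with Tnfsf or Tnfrsf, plus Tnf, Lta, Ltb, Ltbr, Cd40, Cd40lg, Cd27, Cd70, Fas, Fasl, Ngfr, Edar and Eda2r. This gave 41 of the 22180 genes measured, 15 ligands and 26 receptors, each read by 1 probe set. The rule left out 1 further receptor gene, which was not analysed here, and TWEAK and APRIL (Tnfsf12 and Tnfsf13), whose probe set carries several symbols, were not analysed either.

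The high fat group held 5 male C57BL/6J mice whose food drew 60 percent of its calories from fat, and the low fat group 4 males of the same strain whose food drew 10 percent from it. Feeding began when the animals were 6 weeks old and went on for 12 weeks, so all were 18 weeks old at harvest. No genotype, drug or other treatment differed between the groups, and all animals were males of 1 strain. Each mouse gave 1 array (Affymetrix Mouse Gene 2.0 ST) from whole, snap-frozen fat, with no pooling. Values are log2 expression as deposited, and a difference is high fat minus low fat on that scale. The number of arrays limits the precision, and arrays give no depth.

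TNF ligands are mostly trimeric membrane proteins, some of which are cut off the cell surface and act at a distance. Their receptors fall into those with a death domain, which can assemble a caspase-activating complex, those that bind TRAF adaptors and switch on NF-kappaB, and decoys that bind a ligand without signalling. In adipose tissue TNF is known as a product of macrophages that dampens insulin signalling and adipocyte gene expression. Many other family members carry costimulatory signals between lymphocytes and the cells that present antigen to them.

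High fat mice 1 and 2 stood apart in the distribution of all values, with array medians of 6.45 against 6.48 to 6.50 in the rest and SDs of 1.87 against 1.83 to 1.85. Skeletal muscle markers were high in high fat mouse 1 (mean log2 value of 5 genes 8.57, other high fat mice 6.24 to 6.38) and in low fat mouse 4 (7.46, other low fat mice 6.25 to 6.42). Smooth muscle markers were high in low fat mouse 2 (11.3 over 4 genes, other low fat mice 8.88 to 8.89). Prostate and seminal vesicle markers lay at 5.25 to 5.38 in high fat mice and at 5.24 to 5.34 in low fat mice. These 6 genes were dim, from Pbsn at percentile 1.97 of all genes by mean signal to Tgm4 at 28.6. Exactly the same value recurred in 4 arrays for Pbsn, Tgm4 and Svs2 and in 5 for Svs4. Their mean, used below as the prostate score, may therefore hold mostly background, and refits with it cannot show whether prostate tissue mattered. Adipocyte markers lay at 12.7 to 12.9 in high fat mice and at 12.9 in each low fat mouse. Of these 5 markers, 3 passed as lower on high fat diet (Adipoq, Plin1 and Cidec, log2 differences -0.36, -0.48 and -0.23), Lep passed as higher (0.60), and Fabp4 did not pass (-0.10).

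Most of the members that passed were receptors, and most of those were higher on high fat diet. By limma with Benjamini-Hochberg adjustment over all genes, at an adjusted p of 0.05, 9 members were higher and 4 lower, 13 of 41 or 31.7%. Over all 22180 genes the same call was made for 21.5%, with 12.4% higher and 9.13% lower. The calls fell on 11 of 26 receptors, 8 higher and 3 lower, and on 2 of 15 ligands, Tnf higher and Tnfsf10 lower. Whether receptors and ligands differ in this was not tested. The median difference was 0.03 over the members and -0.0011 over all genes, and the median size of the difference was 0.17 against 0.089. In 11 members (26.8%) every value on high fat diet lay to one side of every value on low fat diet, against 20.7% of all genes.

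Signal strength moved with this split. Of the 19 members with a mean signal above that of the median gene, 10 passed (52.6%), against 36.2% of all genes that bright. These were 8 of 14 receptors (57.1%) and 2 of 5 ligands. Of the 22 dimmer members 3 passed (13.6%), against 6.82% of all genes that dim. These were 3 of 12 receptors and 0 of 10 ligands, and 0 of those ligands had an unadjusted p under 0.05 in limma. No detection calls were used, and it was not determined which of the dim members were above background. Of the 13 calls, 7 (Tnfrsf12a, Tnfrsf21, Tnfrsf23, Tnfrsf1b, Tnf, Tnfrsf10b and Tnfrsf18) held in every refit that tested them at that threshold, including each fit that left out 1 mouse. Of these, Tnfrsf18 was too dim to be tested in the fit without dim genes, and a minimum log2 difference of 0.5 would leave it out. The other 6 (Eda2r, Tnfrsf11b, Tnfrsf25, Tnfsf10, Tnfrsf13c and Cd27) were each lost in several of them. Without high fat mice 1 and 2 together, 6 members were higher and 2 lower, and without high fat mouse 1 and low fat mouse 2 together, 8 were higher and 2 lower.

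**Figure D1:**
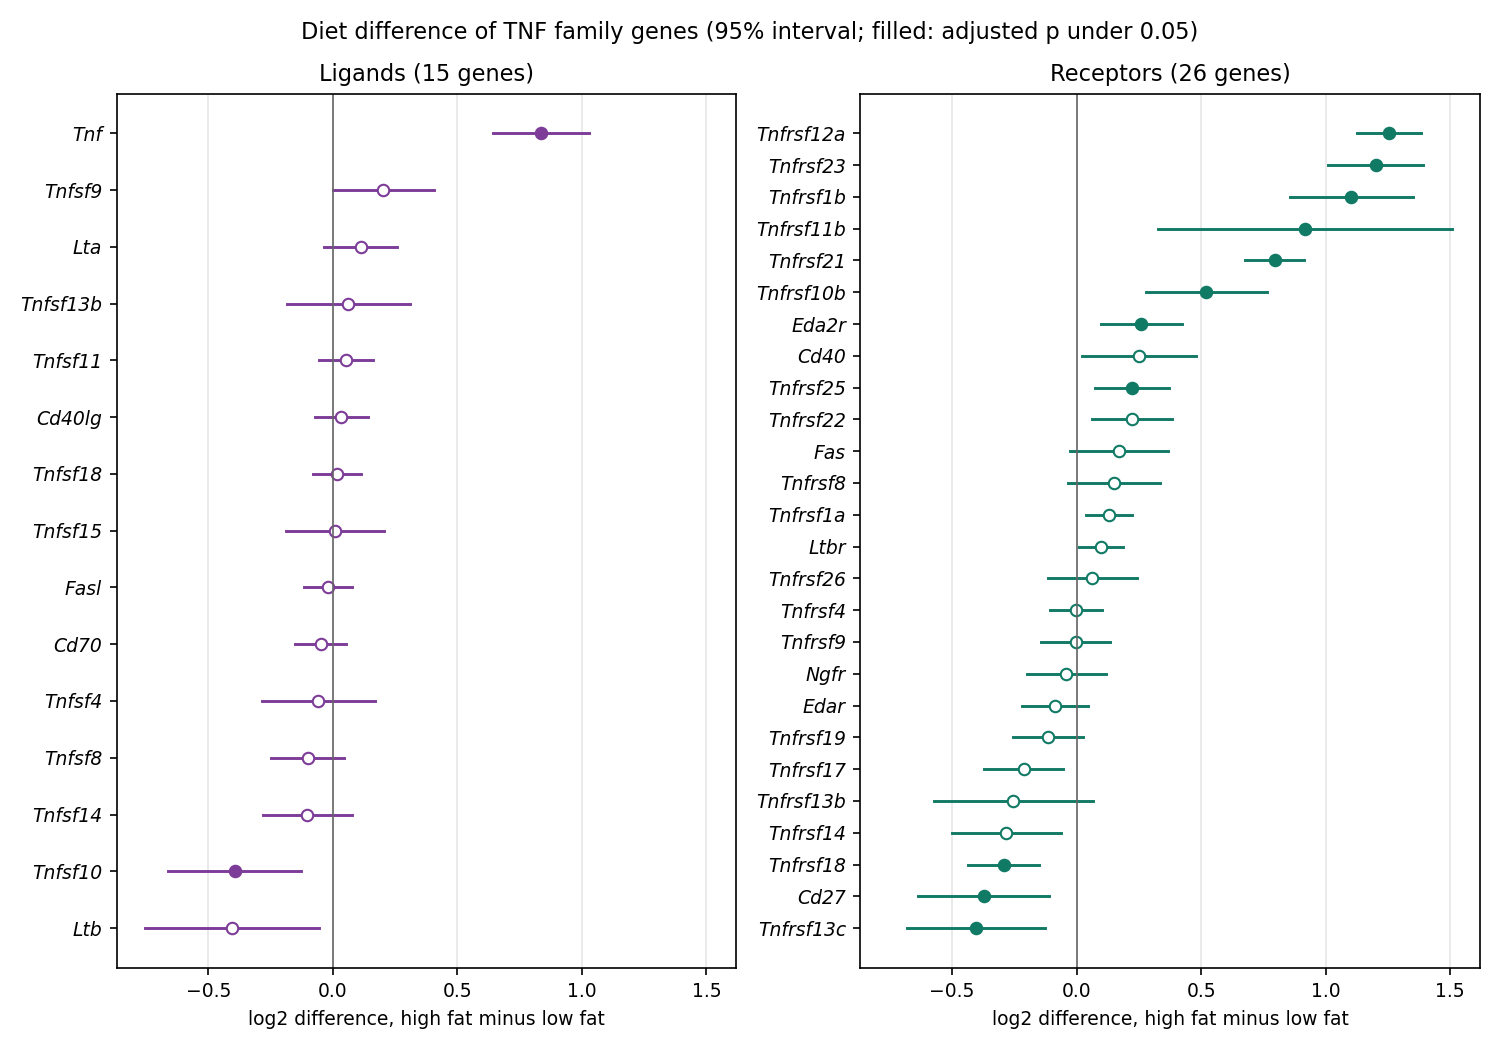
Difference in log2 expression, high fat minus low fat, of 15 ligands (left) and 26 receptors (right), with 95% intervals from limma; filled points passed at an adjusted p of 0.05 over all genes. Tnf stands alone at the top of the ligands at 0.83, and 5 receptors from Tnfrsf12a at 1.25 to Tnfrsf21 at 0.80 lie above the other receptors.

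The smallest p among the members was that of Tnfrsf12a, which encodes Fn14, the receptor of TWEAK. Its log2 values were 9.53, 9.67, 9.58, 9.49 and 9.64 in high fat mice 1 to 5, against 8.34, 8.30, 8.45 and 8.21 in low fat mice 1 to 4. Every high fat mouse lay more than 1 log2 unit above every low fat mouse. Expression was 2.39-fold higher, a difference of 1.25 ± 0.06 (SE, 95% interval 1.13 to 1.38, limma adjusted p = 8.29e-06).

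Tnf itself, the founding ligand, had log2 values of 8.06, 8.19, 8.18, 7.96 and 7.79 in high fat mice 1 to 5, against 7.10, 7.35, 7.20 and 7.16 in low fat mice 1 to 4. No low fat mouse reached the high fat range, and high fat mouse 5 was the lowest of its group. The difference was 0.83 ± 0.09 (SE, limma adjusted p = 0.000184). Tnfrsf1b, the TNF receptor found mainly on immune and endothelial cells, had log2 values of 9.96, 10.07, 10.14, 9.87 and 9.79 in high fat mice 1 to 5. In low fat mice 1 to 4 it had 9.14, 8.66, 8.98 and 8.68. Again all high fat mice were above all low fat mice, by a fold of 2.15 (difference 1.10 ± 0.11, SE, limma adjusted p = 0.000161).

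Tnfrsf1a, the TNF receptor of nearly all cell types and the one with a death domain, had log2 values of 10.50, 10.53, 10.59, 10.57 and 10.63 in high fat mice 1 to 5. In low fat mice 1 to 4 it had 10.45, 10.38, 10.49 and 10.41. The groups did not overlap, but they lay close together and the difference of 0.13 (95% interval 0.04 to 0.22) missed the threshold (limma adjusted p = 0.0524). It passed without high fat mouse 1 (0.15, limma adjusted p = 0.0471) and with dim genes left out of the adjustment (limma adjusted p = 0.0414). Across the refits the difference ran from 0.08 to 0.16, and its limma adjusted p rose to 0.298.

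The lymphotoxin side of the family did not pass. Lta, which encodes a secreted ligand of the same receptors as TNF, averaged 5.90 ± 0.07 on high fat diet (SD, n = 5), against 5.79 ± 0.13 on low fat diet (SD, n = 4). Ltb, which anchors lymphotoxin to the membrane, averaged 7.06 ± 0.22 on high fat diet (SD, n = 5), against 7.46 ± 0.33 on low fat diet (SD, n = 4), with an interval of the difference from -0.75 to -0.05 (limma adjusted p = 0.101). Their receptor gene Ltbr differed by 0.10 (95% interval 0.01 to 0.18, limma adjusted p = 0.112). Tnfsf14 (LIGHT), a further ligand of that receptor, differed by -0.10 (limma adjusted p = 0.423). The LIGHT receptor gene Tnfrsf14 lay at 7.86, 7.77, 7.80, 7.80 and 7.95 in high fat mice 1 to 5, against 8.34, 8.30, 7.90 and 7.92 in low fat mice 1 to 4. High fat mouse 5 lay above low fat mice 3 and 4, and the difference of -0.28 missed the threshold (limma adjusted p = 0.0685). Tnfrsf14 passed with quantile normalization repeated (-0.33), with arrays centred on their medians (-0.33) and with dim genes left out (-0.28). It also passed with the prostate score as a covariate (-0.31), and without low fat mouse 3 (-0.35) or low fat mouse 4 (-0.35). In the other refits at that threshold it did not pass, the difference shrinking to as little as -0.21 and the limma adjusted p reaching 0.222.

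Macrophage markers were higher on high fat diet as well. All 9 of 9 passed, and their mean per mouse ran from 10.9 to 11.5 in high fat mice and from 10.1 to 10.5 in low fat mice. For this and every other marker list, the share of all genes that passed was 21.5%, with 12.4% higher and 9.13% lower. Within the diets the order of the mice was not the same for each gene. High fat mice 1, 2 and 3 lay above high fat mice 4 and 5 for the list, Tnf and Tnfrsf1b. Both the list (11.5) and Tnfrsf1b (10.14) were highest in high fat mouse 3. Low fat mouse 1 had the highest list mean (10.5) and Tnfrsf1b (9.14) of its group but the lowest Tnf (7.10). Low fat mouse 2 had the highest Tnf of its group (7.35), with a list mean of 10.3. The part of macrophages in these results was not tested, and in whole tissue more cells of a type and more RNA per cell cannot be told apart. Of the endothelial markers, 1 of 4 passed as higher, and their mean ran from 9.81 to 10.0 in high fat mice and from 9.75 to 9.96 in low fat mice. Among the other immune and glial lists, 0 of 4 dendritic cell and 0 of 4 mast cell markers passed, 1 of 5 natural killer cell markers was lower, 1 of 4 neutrophil markers was higher and 1 lower, and 1 of 2 Schwann cell markers was higher.

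**Figure D2:**
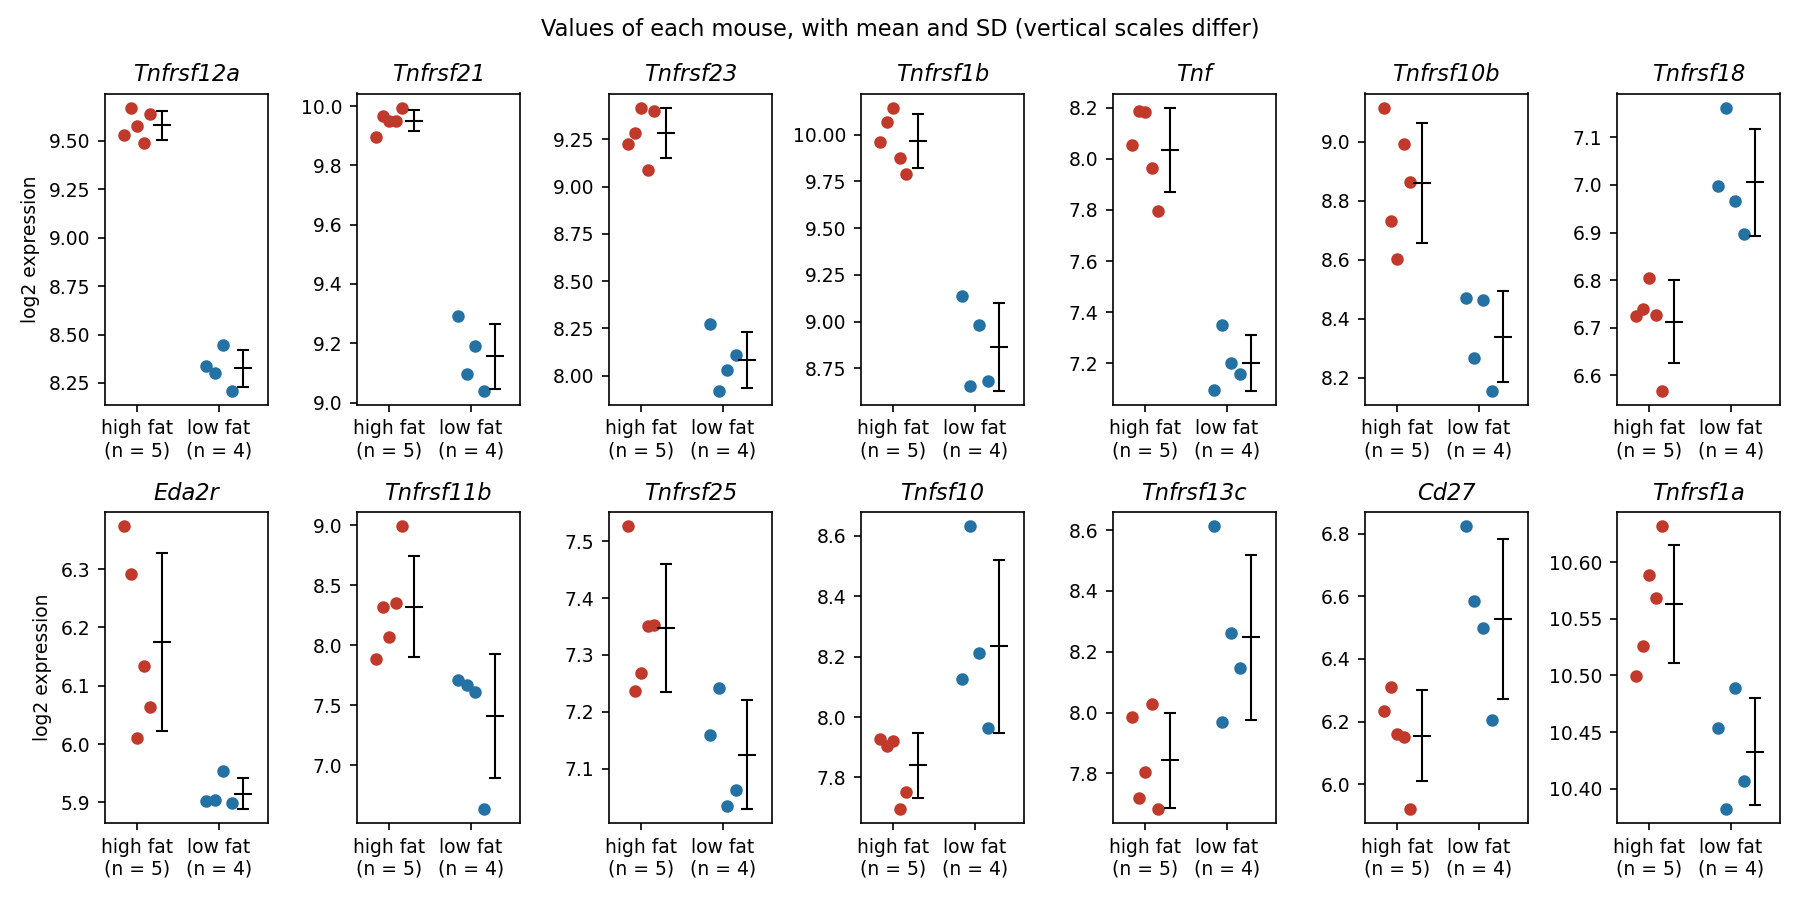
Log2 expression of the 13 members that passed, in order of p, and of Tnfrsf1a; each point is 1 mouse (high fat left, n = 5; low fat right, n = 4), bars show mean and SD, and vertical scales differ between panels. The diets do not overlap in any of the first 9 panels, and they overlap for Tnfrsf25, Tnfrsf13c and Cd27.

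The 250 bases upstream of the start are shown for Tnfrsf12a and Tnf, the receptor and the ligand with the smallest p. Sequences are from RefSeq on GRCm38.p6, 5′ to 3′ on the gene's strand. Capitals mark the GC box GGGCGG or its complement, and in Tnf also the TATA motif TATAAA. Tnfrsf12a lies at chr17:23677450-23677699 on the minus strand and Tnf at chr17:35202008-35202257 on the minus strand.
Tnfrsf12a: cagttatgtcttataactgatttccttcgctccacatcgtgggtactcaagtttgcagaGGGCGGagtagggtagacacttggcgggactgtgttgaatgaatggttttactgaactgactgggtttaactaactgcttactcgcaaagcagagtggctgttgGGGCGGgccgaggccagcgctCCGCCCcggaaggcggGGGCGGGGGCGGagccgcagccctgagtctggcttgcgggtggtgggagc
Tnf: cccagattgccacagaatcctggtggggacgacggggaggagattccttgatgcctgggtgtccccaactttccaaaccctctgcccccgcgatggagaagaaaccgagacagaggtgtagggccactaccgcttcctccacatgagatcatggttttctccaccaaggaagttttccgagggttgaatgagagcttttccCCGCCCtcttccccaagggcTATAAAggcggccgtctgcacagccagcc

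The Tnfrsf12a window holds 5 GC boxes, of which the last pair run together, and 0 TATA motifs. The Tnf window holds 1 GC box and 1 TATA motif, which begins 29 bases before the start. Of the 41 members 32 had a promoter entry, Tnfrsf10b, Tnfrsf11b, Tnfrsf22, Tnfrsf26, Cd40, Cd40lg, Cd70, Tnfsf4 and Tnfsf9 having none. Searched on both strands, the GC box stood in 15 of these 32 members, in 7 of the 11 that passed, and in 35.4% of all 27025 genes with an entry. TATAAA stood in 7 of 32 members, in 3 of the 11 that passed (Tnf, Tnfrsf23 and Eda2r), and in 14.3% of all genes. The kappaB consensus stood in 4 of 32 members (Ltb, Tnfrsf25, Tnfrsf8 and Tnfrsf9), in 1 of the 11 that passed, and in 8.23% of all genes. The GC box and TATA motifs were chosen after the values were seen, and a match is a description of these windows.

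Genes grouped here with TRAIL, a ligand that can kill cells through a death receptor, passed in both directions. The ligand was lower, and 2 of the 4 receptor genes of the group (Tnfrsf10b, Tnfrsf22, Tnfrsf23 and Tnfrsf26) were higher. Tnfrsf11b was grouped with RANKL and is given below. Over all genes 12.4% were higher and 9.13% lower. Tnfsf10, which encodes TRAIL, had log2 values of 7.93, 7.90, 7.92, 7.70 and 7.75 in high fat mice 1 to 5, against 8.13, 8.63, 8.21 and 7.96 in low fat mice 1 to 4. The groups did not overlap, though high fat mouse 1 and low fat mouse 4 lay close together, and low fat mouse 2 was the highest. The difference was -0.39 ± 0.12 (SE, limma adjusted p = 0.0405). Gene Tnfsf10 no longer passed without any 1 of the high fat mice or without low fat mouse 1 or 3 (differences from -0.43 to -0.36, limma adjusted p from 0.0556 to 0.0867), and without low fat mouse 2 the difference was -0.26, which passed. It was -0.44 without high fat mice 1 and 2 together and -0.28 without high fat mouse 1 and low fat mouse 2 together, and passed in neither fit.

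Tnfrsf10b, the signalling TRAIL receptor of the mouse, had log2 values of 9.12, 8.73, 8.60, 8.99 and 8.86 in high fat mice 1 to 5, against 8.47, 8.27, 8.46 and 8.16 in low fat mice 1 to 4. The groups did not overlap, and expression was 1.44-fold higher (difference 0.52 ± 0.11, SE, limma adjusted p = 0.00713). Tnfrsf23, a decoy receptor of TRAIL known in mice, had log2 values of 9.23, 9.28, 9.42, 9.09 and 9.40 in high fat mice 1 to 5. In low fat mice 1 to 4 it had 8.27, 7.92, 8.03 and 8.11. All high fat mice stood more than 0.75 log2 units above all low fat mice, a 2.30-fold difference (1.20 ± 0.09, SE, limma adjusted p = 4.06e-05).

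Its neighbour and close relative Tnfrsf22, also a decoy in mice, had log2 values of 8.70, 8.43, 8.42, 8.58 and 8.49 in high fat mice 1 to 5. In low fat mice 1 to 4 it had 8.21, 8.37, 8.42 and 8.21. Low fat mouse 3 lay level with high fat mouse 3, and the difference of 0.22 missed the threshold (limma adjusted p = 0.0536). Gene Tnfrsf22 passed without low fat mouse 3 (0.26) and with dim genes left out (0.22). The refits ran from 0.17 to 0.26, with a limma adjusted p of up to 0.159. Tnfrsf26, the other gene of that cluster, differed by 0.06 (95% interval -0.11 to 0.24). Probes of such similar genes can share signal, so how much of the change belongs to each is uncertain.

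The Fas pair did not pass. Fas, a death receptor, averaged 8.82 ± 0.19 on high fat diet (SD, n = 5), against 8.65 ± 0.06 on low fat diet (SD, n = 4), with an interval of the difference from -0.02 to 0.37 (limma adjusted p = 0.213). Without high fat mouse 3, the lowest at 8.53, gene Fas passed at a difference of 0.24 (limma adjusted p = 0.024). No other refit passed it, the difference falling to as little as 0.11 and the limma adjusted p reaching 0.501. Fasl, its ligand, averaged 5.63 ± 0.03 on high fat diet (SD, n = 5), against 5.65 ± 0.07 on low fat diet (SD, n = 4) (limma adjusted p = 0.807).

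Other receptors that rose included Tnfrsf21, which encodes DR6, a death domain receptor studied mainly in neurons and lymphocytes. Its log2 values were 9.89, 9.96, 9.95, 9.95 and 9.99 in high fat mice 1 to 5, against 9.29, 9.10, 9.19 and 9.04 in low fat mice 1 to 4. The spread within high fat mice was small beside the gap between the diets, and the gene was 1.74-fold higher (difference 0.80 ± 0.05, SE, limma adjusted p = 3.29e-05).

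Tnfrsf11b, which encodes osteoprotegerin, the secreted decoy of RANKL, had log2 values of 7.88, 8.32, 8.06, 8.35 and 8.99 in high fat mice 1 to 5, against 7.71, 7.67, 7.61 and 6.63 in low fat mice 1 to 4. The groups did not overlap, but high fat mouse 5 and low fat mouse 4 stood far from the others of their groups. The difference of 0.92 ± 0.26 (SE, limma adjusted p = 0.0333) no longer passed without high fat mouse 2, 4 or 5 or low fat mouse 3 or 4, where it ran from 0.66 to 0.98 (limma adjusted p from 0.0514 to 0.066). It was also lost without high fat mice 1 and 2 together (1.06) and with the prostate score as a covariate (0.88, limma adjusted p = 0.0534). The same mice held the extremes of the fibroblast and progenitor markers, at 11.5 in high fat mouse 5 and 10.3 in low fat mouse 4, and of the mesothelial markers, at 9.44 in high fat mouse 5 and 7.50 in low fat mouse 4. Over all mice the fibroblast and progenitor list ran from 10.9 to 11.5 in high fat mice and from 10.3 to 10.8 in low fat mice, with 2 of 5 genes passing as higher. The mesothelial list ran from 8.05 to 9.44 in high fat mice and from 7.50 to 8.72 in low fat mice, with 0 of 4 passing. Their part in the result was not tested. Tnfsf11, the RANKL gene, averaged 5.43 ± 0.06 on high fat diet (SD, n = 5), against 5.38 ± 0.07 on low fat diet (SD, n = 4), with an interval of the difference from -0.05 to 0.16.

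Eda2r, a receptor of one form of ectodysplasin, had log2 values of 6.37, 6.29, 6.01, 6.13 and 6.06 in high fat mice 1 to 5, against 5.90, 5.90, 5.95 and 5.90 in low fat mice 1 to 4. Every high fat mouse was above every low fat mouse, and high fat mice 1 and 2 were the highest. The difference of 0.26 ± 0.07 (SE, limma adjusted p = 0.0299) was 0.15 without high fat mice 1 and 2 together and no longer passed (limma adjusted p = 0.0697). It was also lost with quantile normalization repeated (0.23), without high fat mouse 1 and low fat mouse 2 together (0.21) and without high fat mouse 2 or any 1 low fat mouse (0.23 to 0.27, limma adjusted p from 0.0519 to 0.07).

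Tnfrsf25, a death domain receptor of T cells, had log2 values of 7.53, 7.24, 7.27, 7.35 and 7.35 in high fat mice 1 to 5, against 7.16, 7.24, 7.03 and 7.06 in low fat mice 1 to 4. Low fat mouse 2 lay level with high fat mouse 2, and the difference was 0.22 ± 0.07 (SE, limma adjusted p = 0.0403). Gene Tnfrsf25 no longer passed with arrays centred on their medians (0.18), with quantile normalization repeated (0.17), with the prostate score as a covariate (0.21) or without high fat mice 1 and 2 together (0.20). It was lost too without high fat mouse 1, 3, 4 or 5 or low fat mouse 1, 3 or 4 (0.18 to 0.24, limma adjusted p from 0.0505 to 0.107). Its ligand gene Tnfsf15 differed by 0.01 (95% interval -0.19 to 0.21).

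The remaining receptors outside the lymphocyte pathways did not pass. Tnfrsf19, a receptor of embryonic and neural tissue, differed by -0.11 (95% interval -0.26 to 0.03). Ngfr, the low affinity neurotrophin receptor, differed by -0.04 (95% interval -0.20 to 0.12). Edar, the ectodysplasin receptor of hair and tooth buds, differed by -0.09 (95% interval -0.22 to 0.04).

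Among the BAFF receptors and the receptors of the 6 costimulatory pairs given below, those that passed were lower in high fat diet. Tnfrsf25, also a receptor of T cells, was not counted in these groups and passed as higher (0.22). Tnfrsf18, which encodes GITR, a receptor of regulatory and activated T cells, had log2 values of 6.72, 6.74, 6.80, 6.73 and 6.57 in high fat mice 1 to 5, against 7.00, 7.16, 6.97 and 6.90 in low fat mice 1 to 4. All high fat mice were below all low fat mice, and the gene was 1.23-fold lower (difference -0.29 ± 0.06, SE, limma adjusted p = 0.00907). T cell markers ran from 6.43 to 6.91 in high fat mice and from 6.76 to 7.25 in low fat mice and overlapped, with 0 of 6 passing, and the part of T cells in this result was not tested.

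Cd27, a costimulatory receptor of T cells and memory B cells, had log2 values of 6.23, 6.31, 6.16, 6.15 and 5.92 in high fat mice 1 to 5, against 6.82, 6.58, 6.50 and 6.20 in low fat mice 1 to 4. Low fat mouse 4 lay below high fat mice 1 and 2. The difference of -0.37 ± 0.12 (SE, limma adjusted p = 0.0481) no longer passed with array weights (-0.33), or without any 1 mouse other than low fat mouse 4 (-0.41 to -0.27, limma adjusted p from 0.0535 to 0.111). Without high fat mouse 1 and low fat mouse 2 together it was -0.37 (limma adjusted p = 0.137), and without high fat mice 1 and 2 together -0.45 (limma adjusted p = 0.0714).

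Tnfrsf13c, which encodes the BAFF receptor that keeps mature B cells alive, had log2 values of 7.99, 7.72, 7.80, 8.03 and 7.68 in high fat mice 1 to 5, against 8.61, 7.97, 8.26 and 8.15 in low fat mice 1 to 4. High fat mice 1 and 4 lay above low fat mouse 2. The difference of -0.40 ± 0.12 (SE, limma adjusted p = 0.0437) was lost without high fat mouse 1, 2, 3 or 5 or low fat mouse 1, 3 or 4 (-0.44 to -0.28, limma adjusted p from 0.0509 to 0.0976). It was also lost without high fat mice 1 and 2 together (-0.41, limma adjusted p = 0.122) and with the prostate score as a covariate (-0.41, limma adjusted p = 0.0575).

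The other BAFF receptors pointed the same way without passing. Tnfrsf17 (BCMA), a receptor of plasma cells, averaged 6.50 ± 0.11 on high fat diet (SD, n = 5), against 6.72 ± 0.11 on low fat diet (SD, n = 4) (limma adjusted p = 0.0575). It passed with quantile normalization repeated (-0.25), with arrays centred on their medians (-0.26) and without high fat mice 1 and 2 together (-0.28). It also passed without high fat mouse 2 (-0.24) or low fat mouse 4 (-0.26). Other refits at that threshold did not pass it, with differences down to -0.17 and a limma adjusted p of up to 0.139. Tnfrsf13b (TACI) averaged 5.95 ± 0.09 on high fat diet (SD, n = 5), against 6.20 ± 0.36 on low fat diet (SD, n = 4) (limma adjusted p = 0.259). The ligand gene Tnfsf13b (BAFF) averaged 8.13 ± 0.18 on high fat diet (SD, n = 5), against 8.07 ± 0.21 on low fat diet (SD, n = 4), with an interval of the difference from -0.19 to 0.31.

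Values of the B cell markers differed in the same direction but did not pass. Their mean over 4 genes ran from 7.38 to 8.59 in high fat mice and from 8.26 to 9.54 in low fat mice, with a median difference of -0.93 and 0 of 4 passing. Low fat mouse 1 was the highest mouse for the B cell list (9.54), Tnfrsf13c (8.61), Tnfrsf13b (6.74), Cd27 (6.82) and Ltb (7.87). Of the plasma cell markers, 2 of 3 passed as lower and 1 as higher, and their mean ran from 7.52 to 8.44 in high fat mice and from 8.41 to 8.67 in low fat mice. The part of B and plasma cells in these results was not tested.

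**Figure D3:**
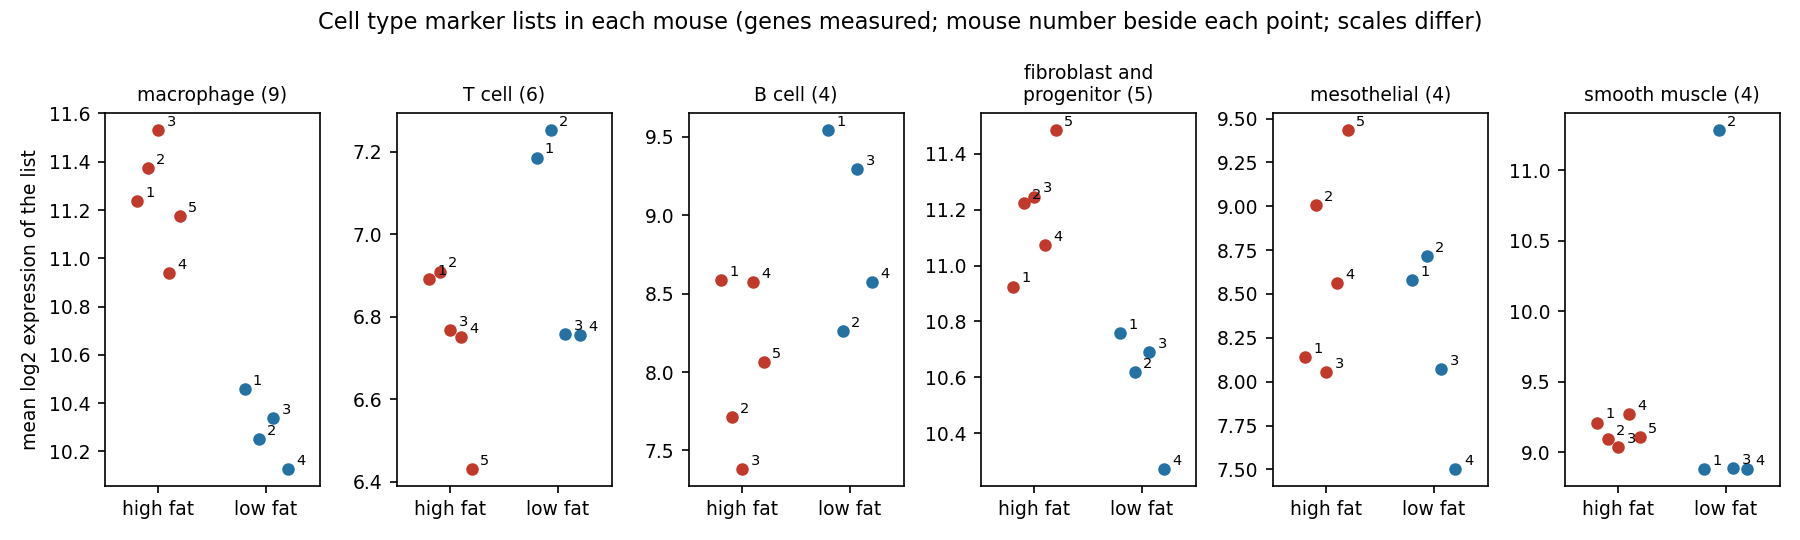
Mean log2 expression per mouse of 6 lists of cell type markers, with the number of genes measured in brackets and the mouse number beside each point (high fat left, low fat right); vertical scales differ. Macrophage and fibroblast lists separate the diets, T cell, B cell and mesothelial lists overlap, and low fat mouse 2 stands at 11.3 in the smooth muscle list.

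Of the 12 genes of 6 costimulatory pairs, 2 passed (16.7%), Tnfrsf18 and Cd27, against 21.5% of all genes, and 0 of the 6 ligands did. Cd40, a receptor of B cells and macrophages, averaged 7.70 ± 0.09 on high fat diet (SD, n = 5), against 7.45 ± 0.24 on low fat diet (SD, n = 4), low fat mouse 2 being the lowest at 7.10 (95% interval of the difference 0.02 to 0.48, limma adjusted p = 0.121). Cd40lg, its ligand on T cells, differed by 0.03 (95% interval -0.07 to 0.14). Tnfsf9, the ligand of the costimulatory receptor encoded by Tnfrsf9, averaged 7.13 ± 0.07 on high fat diet (SD, n = 5), against 6.93 ± 0.21 on low fat diet (SD, n = 4) (limma adjusted p = 0.153).

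Tnfrsf9 itself differed by -0.0031 (95% interval -0.14 to 0.14), and Tnfrsf4, the OX40 gene of activated T cells, by -0.0028 (95% interval -0.11 to 0.10). Tnfrsf8, the gene of CD30, a receptor of activated lymphocytes, differed by 0.15 (95% interval -0.04 to 0.34). The ligand genes of OX40, CD30, CD27 and GITR were all among the 22 dimmer members. Cd70 lay between 4.82 and 5.06, Tnfsf18 between 5.06 and 5.21, Tnfsf4 between 5.30 and 5.91 and Tnfsf8 between 5.51 and 5.88 over all 9 arrays. Their differences were -0.05, 0.02, -0.06 and -0.10 in that order, and each missed the threshold. Exactly the same value recurred in 3 or more arrays for 5 members, in 6 arrays for Tnfsf18, 4 for Tnfsf8 and 3 each for Tnfsf4, Lta and Tnfsf9, and 0 of these 5 passed.

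The signalling genes downstream of these receptors were read from a list of 53 adaptors, kinases, ubiquitin enzymes, NF-kappaB subunits, sheddases and related genes (Tnfaip2, Tnfaip6, Tnfaip8, the receptor gene Relt and the ligand gene Eda), of which 49 were measured. Among them 19 were higher and 5 lower in high fat diet, 24 of 49 or 49.0%, against 21.5% of all genes. Of the 46 brighter than the median gene 23 passed (50%), against 36.2% of all genes that bright. Their median difference was 0.10, against -0.0011 over all genes. In the NF-kappaB group 5 of 10 measured members were higher and 0 lower. Nfkb1 and Chuk of this group, and Traf3 and Ripk1 of the other groups, were not among the 49 measured.

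Nfkb2, the subunit of the noncanonical pathway, averaged 8.93 ± 0.04 on high fat diet (SD, n = 5), against 8.34 ± 0.14 on low fat diet (SD, n = 4), a 1.51-fold difference (limma adjusted p = 0.000197). Bcl3, a nuclear partner of the NF-kappaB subunits p50 and p52, was 1.48-fold higher (limma adjusted p = 0.00026). Rel, a subunit of lymphoid and myeloid cells, was 1.36-fold higher, and the inhibitor genes Nfkbie and Nfkbib 1.25-fold and 1.18-fold. The inhibitor gene Nfkbia differed by 0.07 and the subunit gene Relb by 0.13, and both missed the threshold. Map3k14, which encodes the kinase that starts the noncanonical pathway, was 1.20-fold higher. Rela, the main canonical subunit, differed by 0.01 (95% interval -0.12 to 0.13), and Ikbkb, the canonical inhibitor kinase, by -0.0077.

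The enzymes that release TNF from the cell surface were higher. Adam17, the TNF sheddase, averaged 9.20 ± 0.12 on high fat diet (SD, n = 5), against 8.64 ± 0.05 on low fat diet (SD, n = 4), a 1.48-fold difference (limma adjusted p = 0.000284). Adam10, a related sheddase, was 1.24-fold higher (limma adjusted p = 0.00104), and Rhbdf2, the partner that carries ADAM17 to the surface, 1.26-fold (limma adjusted p = 0.0124). Rhbdf1 differed by 0.17 and missed the threshold (limma adjusted p = 0.111).

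Adaptors, kinases and ubiquitin enzymes moved both ways. Traf5, Traf2 and Tradd were 1.29-fold, 1.22-fold and 1.19-fold higher. Ripk3, the necroptosis kinase, averaged 7.63 ± 0.07 on high fat diet (SD, n = 5), against 7.12 ± 0.12 on low fat diet (SD, n = 4) (1.42-fold higher, limma adjusted p = 0.000402). Its substrate gene Mlkl differed by -0.15 (95% interval -0.50 to 0.21). Bag4, the silencer of death domains, averaged 9.16 ± 0.11 on high fat diet (SD, n = 5), against 10.1 ± 0.13 on low fat diet (SD, n = 4). It was 1.90-fold lower (limma adjusted p = 6e-05), and with the mean of its probes the difference of gene Bag4 was -0.56 against -0.92. Tab3, an adaptor of the kinase TAK1, was 1.57-fold lower (limma adjusted p = 9.15e-05), whereas its relative Tab2 was 1.09-fold higher.

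The kinase gene Map3k5 (1.26-fold lower) and Bid (1.17-fold lower), which links death receptors to mitochondria, fell too. Bid held exactly the same value, 7.74, in high fat mice 2 and 3 and in low fat mouse 3. Rbck1, a part of the linear ubiquitin ligase, was 1.21-fold lower (limma adjusted p = 0.00108), while Otulin, which removes linear chains, was 1.30-fold higher. The brakes Tnip1 (limma adjusted p = 0.00137) and Tnfaip3 were 1.38-fold and 1.21-fold higher. Tnfaip2 and Tnfaip6, both named for their induction by TNF, were 2.22-fold (limma adjusted p = 0.000801) and 1.69-fold higher, and Tnfaip8, named the same way, differed by -0.05 (limma adjusted p = 0.418). Fadd and Casp8, the core of the death receptor complex, differed by 0.02 and 0.02, and their intervals ran from -0.06 to 0.10 and from -0.07 to 0.11.

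Of these 24 calls, 15 held in every refit that tested them at that threshold, Tnfaip6 being too dim to be tested in the fit without dim genes. A minimum log2 difference of 0.5 would leave out Adam10, Rbck1, Tnip1, Nfkbib, Otulin, Map3k5 and Traf5 from these 15. The count of higher genes was 11 without high fat mice 1 and 2 together and 12 without high fat mouse 1 and low fat mouse 2 together, against 19. Without both high fat mice 1 and 2, Traf2 (0.23), Rhbdf2 (0.34), Nfkbie (0.27), Tradd (0.18), Tnfaip3 (0.19), Map3k14 (0.22), Tab2 (0.13), Rel (0.38) and Bid (-0.26) no longer passed. With 1 mouse left out, Nfkbie was lost without low fat mouse 2, 3 or 4 (0.27 to 0.31) and Tradd without these or high fat mouse 1 or 2 (0.22 to 0.26). Tnfaip3 (0.24 at each) and Map3k14 (0.20 to 0.25) were lost without high fat mouse 1 or 2 or low fat mouse 3 or 4, and Rel without high fat mouse 1, 2 or 4 or low fat mouse 2 (0.39 to 0.46). Bid was lost without high fat mouse 4 or 5 or low fat mouse 1, 2 or 4 (-0.24 to -0.19). Tab2 was lost without high fat mouse 1, 3 or 4 or low fat mouse 1, 2 or 4 (0.11 to 0.12), and with arrays rescaled (0.08 by either rescaling).

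**Figure D4:**
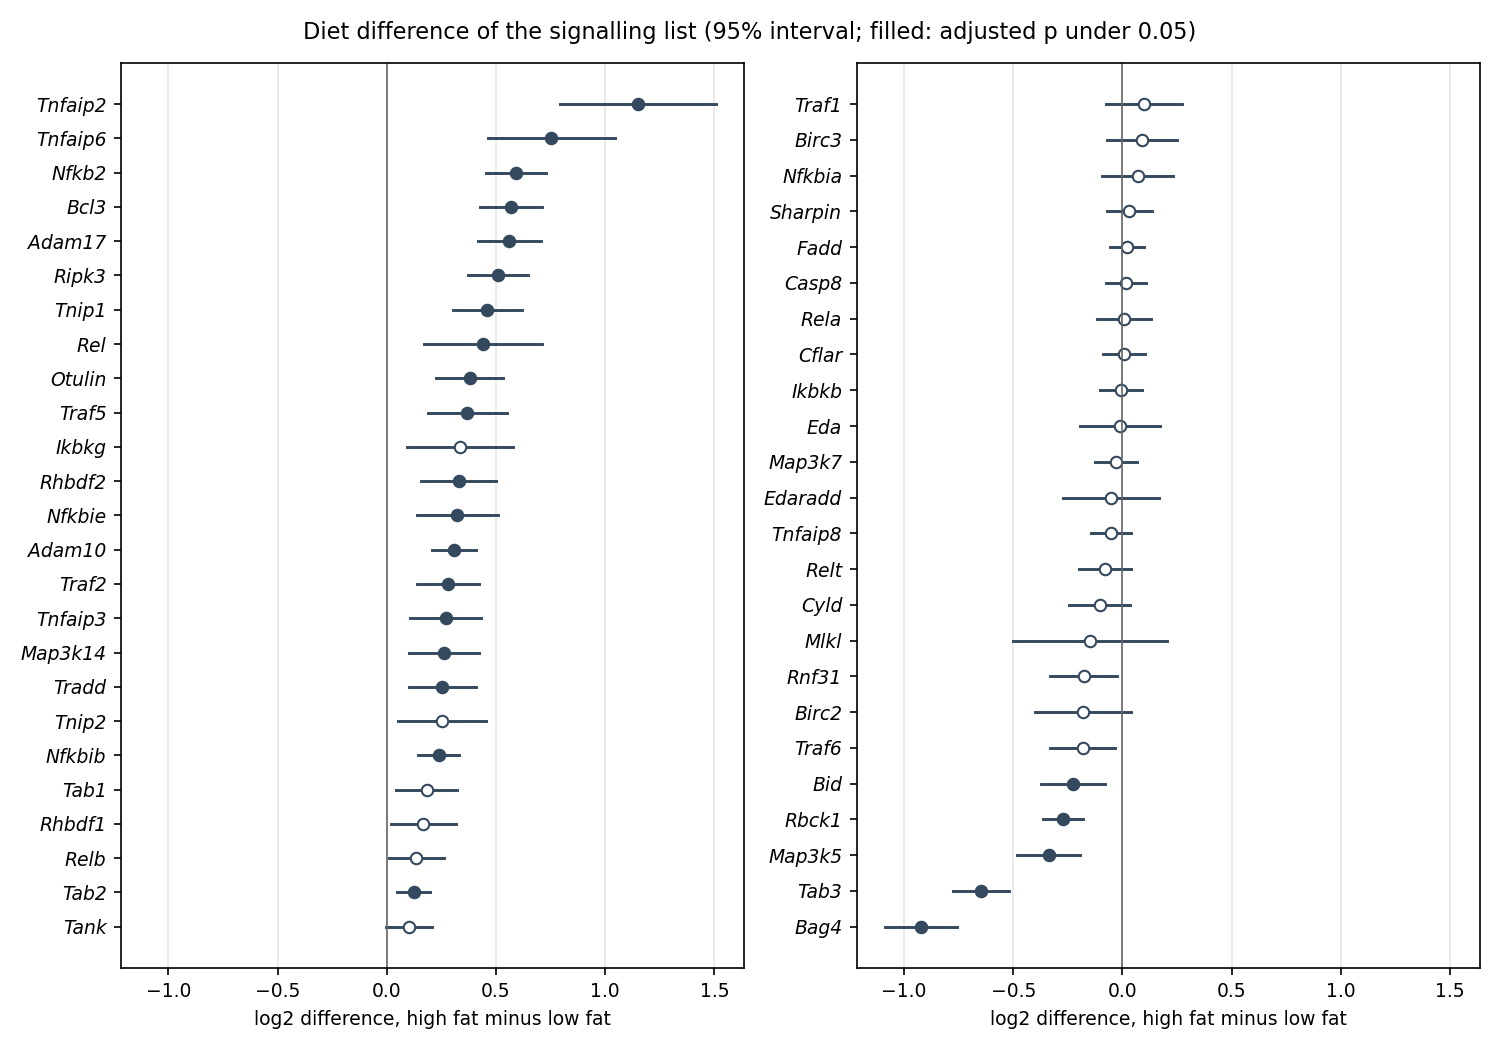
Difference in log2 expression, high fat minus low fat, of the 49 measured genes of the signalling list in order of size, with 95% intervals from limma; filled points passed at an adjusted p of 0.05 over all genes. Of the 24 filled points, 19 lie above zero, led by Tnfaip2 at 1.15, and 5 below it, led by Bag4 at -0.92.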

How the data were processed

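RNA of whole periprostatic fat from 5 high fat and 4 low fat mice was hybridised to 1 array per mouse, so replicates are separate mice. The deposited log2 values were background-corrected, normalized and summarised per probe set with RMA by the authors, in R 3.5.0 with limma, per the submitters' processing notes. No genome build is named in the sources used. Of 33793 probe sets, 23521 carried 1 gene symbol, 1814 several and 8458 none, and 22180 genes were tested, keeping the probe set with the highest mean for the 1082 genes with more than 1. High fat minus low fat was tested with lmFit and eBayes (limma 3.58.1 in R 4.3.3) on all 9 arrays, with no covariate, Benjamini-Hochberg adjustment over all genes, a threshold of 0.05 and no minimum difference. Intervals are 95% from the moderated standard error. The fit was tested on simulated data.

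The members, the signalling list, the marker lists and the alternatives were chosen with earlier results of these data known. Every member was named. Values of every mouse were given for members past the threshold and for Tnf, Tnfrsf1a and Tnfrsf1b. For the signalling list, p-values were given for the 10 genes with the smallest p, and also for Rhbdf2, Rhbdf1 and Tnfaip8. Group means were given only for Nfkb2, Adam17, Ripk3 and Bag4 of that list. Values of each mouse for Tnfrsf14 and Tnfrsf22, and folds of other signalling genes, were added after they were seen. Promoter windows came from RefSeq. Alternatives were other scalings, a filter on dim genes, the mean of probes, another variance model, array weights, a replicate block, a prostate marker covariate, other call rules, and leaving out mice.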

Additional observations from a re-analysis of the deposited data

Results flagged for a closer look

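Of 130 groups of arrays (65 genes by 2 diets), 6 held a mouse whose gap to its neighbour exceeded Dixon's 95% critical value, and chance alone would flag about 6.5. Tnfrsf8 was at 6.58 in high fat mouse 4, the other high fat mice lying at 6.19 to 6.28, and Tnfrsf19 at 6.53 in the same mouse, the others lying at 6.38 to 6.41. Tnfrsf11b was at 6.63 in low fat mouse 4, the other low fat mice lying at 7.61 to 7.71. Low fat mouse 2 had Edar at 6.46, with its group otherwise at 6.31 to 6.33. It also had Tnfsf18 at 5.06, with its group otherwise at exactly 5.17. Eda2r was at 5.95 in low fat mouse 3, against 5.90 in each of the others. Of these genes Tnfrsf11b and Eda2r passed the diet test.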

How the results depend on the processing

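The 9 higher and 4 lower members became 7 and 6 with quantile normalization repeated, 8 and 6 with arrays centred, 7 and 4 with the prostate covariate and 9 and 3 with array weights. Lower members numbered 2 without high fat mice 1 and 2, 2 without high fat mouse 1 and low fat mouse 2, and 0 with a minimum difference of 0.5, where 7 were higher. With 1 mouse left out, 6 to 9 members were higher and 1 to 5 lower. The signalling genes numbered 11, 12 and 6 higher under those 3 settings, against 19, and 2 lower under the last, against 5. With 1 mouse left out they numbered 14 to 21 higher and 4 to 5 lower. Over all genes 4768 changed, 1566 with a minimum difference of 0.5 and 3759 to 4364 with 1 mouse left out. The 2742 higher and 2026 lower became 2320 and 2771 with quantile normalization repeated, 2227 and 3056 with arrays centred, and 1051 and 515 with the minimum difference. Without high fat mice 1 and 2, 1716 were higher, and with 1 mouse left out 2153 to 2604 higher and 1526 to 1826 lower. With the mouse number as a replicate block 4036 genes passed, and 6 members were higher and 3 lower, Cd27, Eda2r, Tnfrsf11b and Tnfrsf25 being lost. High fat mouse 5 has no low fat mouse of its number, so it added nothing to the differences of that fit. They equal those without high fat mouse 5 (Tnfrsf11b 0.75 in both). Same-numbered mice correlated at 0.048 to 0.13 in their deviations, and 2 of 4 numbers correlated best with their own. These values cannot tell whether same-numbered mice share more than a number, and the labels state no pairing. The cause of these shifts was not tested.

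Among members that never passed, the sign of small differences turned. With arrays centred, Cd40lg was at -0.0094, Tnfsf15 at -0.036 and Tnfsf18 at -0.027, and with quantile normalization repeated Tnfsf15 was at -0.017. Without high fat mice 1 and 2, Tnfrsf26 was at -0.0030, Tnfrsf9 at 0.047 and Tnfsf13b at -0.012. Without high fat mouse 1 and low fat mouse 2, Tnfrsf26 was at -0.027, Tnfrsf9 at 0.025, Tnfsf15 at -0.018 and Tnfsf18 at -0.014. With the replicate block Tnfrsf4 was at 0.014 and Tnfrsf9 at 0.0077, and with the covariate Tnfrsf4 was at 0.0064 and Tnfsf15 at -0.012. With 1 mouse left out, Fasl ran from -0.046 to 0.011, Tnfrsf26 from -0.0029 to 0.13, Tnfrsf4 from -0.036 to 0.017, Tnfrsf9 from -0.049 to 0.028, Tnfsf13b from -0.00075 to 0.12, Tnfsf15 from -0.053 to 0.11, Tnfsf18 from -0.011 to 0.037 and Tnfsf4 from -0.16 to 0.045.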
